A study of Mus musculus with 2 samples.

Results

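The 10 genes described here encode chondroitin sulphate proteoglycans of the developing brain and the matrix proteins that bind them (Ncan, Bcan, Vcan, Hapln1, Ptprz1, Cspg5, Tnc and Tnr), together with the secreted protein reelin (Reln) and its adaptor inside the responding cell (Dab1). They were taken by gene symbol, from a list chosen with earlier results of these data known. Each symbol matched 1 identifier, so that all 10 were found among the 43346 Ensembl genes of both gene tables. The RNA came from whole midbrain of B6NCrl mouse embryos at 16.5 days of gestation. There is 1 group, and its 2 biological replicates are separate pools that mix male and female embryos. Replicate 2 pooled 37 embryos, the number is not given for replicate 1, and both carry the same donor identifier. No mutation, transgene or treatment is named. Each library started from 10 ng of RNA longer than 200 nucleotides, with spike-in sequences added.

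The extracellular matrix of the embryonic brain is built on hyaluronan, a sugar polymer that lacks a protein core. Lecticans are proteoglycans that bind hyaluronan at one end and tenascins at the other, and link proteins hold the lectican and the polymer together. Their chondroitin sulphate chains are known to slow growing axons, and the enzymes that build and cut the chains and cores set how much of this matrix a region has. Reelin is a large matrix glycoprotein that binds receptors on migrating neurons and leads to phosphorylation of the Dab1 protein within them, which is needed for neurons to settle in their layers and nuclei.

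With a single group, the data answer how abundant each gene was, which transcript forms it was assigned to, and how far the 2 pools differed. No test between conditions exists and no p-value is given, so each difference is a description of 2 libraries. Expected counts, the estimated reads per gene, summed to 31830355 in replicate 1 and 36576263 in replicate 2. On a transcript with an effective length of 1 kilobase, 1 read was worth 0.0540 and 0.0464 TPM (a level per unit of transcript length, scaled to a common library total). Spike-ins took 1.49% and 2.23% of the counts. Of 10 midbrain territory genes, 9 reached 1 TPM in both pools, with Otx2 at 56.3 and 64.5 TPM, whereas of 9 hindbrain and cerebellum genes only Barhl1 did. In whole tissue, fewer cells of a type and less RNA per cell cannot be told apart.

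Of the 10 genes, 9 were detected, meaning at least 1 TPM in both libraries, and 8 reached 10 TPM in both. Among 21474 protein-coding genes, 62.1% were detected and 41.2% reached 10 TPM. The median level of the 10 genes was 42.8 TPM in replicate 1 and 57.4 TPM in replicate 2, a mean of 50.1 ± 10.3 TPM (SD, n = 2), beside 20.3 ± 0.339 TPM for the detected protein-coding genes. Ordered by mean level, Ncan stood highest and was followed by Dab1, Cspg5, Bcan, Ptprz1, Tnc, Reln, Vcan, Tnr and Hapln1. The ranges over the pools overlapped for several neighbours: Dab1 and Cspg5, Cspg5 and Bcan, Bcan and Ptprz1, and Ptprz1 and Tnc. Within each library these pairs kept their order, except for Bcan and Ptprz1. Those stood at 43.47 and 43.52 TPM in replicate 1 and at 80.8 and 61.1 TPM in replicate 2. Ncan lay above all other members in both pools, and Tnr and Hapln1 lay below all others. This order is by the TPM of all transcript models of a gene. Models annotated as protein-coding held 38.7% and 36.7% of the TPM of Reln, in replicates 1 and 2, and 96.55% and 99.1% for Vcan. They held 61.4% and 59.0% for Dab1 and 100% for Cspg5. The full-length coding model of Bcan stood at 36.9 and 66.0 TPM, beside 43.5 and 61.1 TPM for Ptprz1. By mean level, the places of Reln above Vcan, of Dab1 above Cspg5 and of Bcan above Ptprz1 thus rest on other models.

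**Figure D1:**
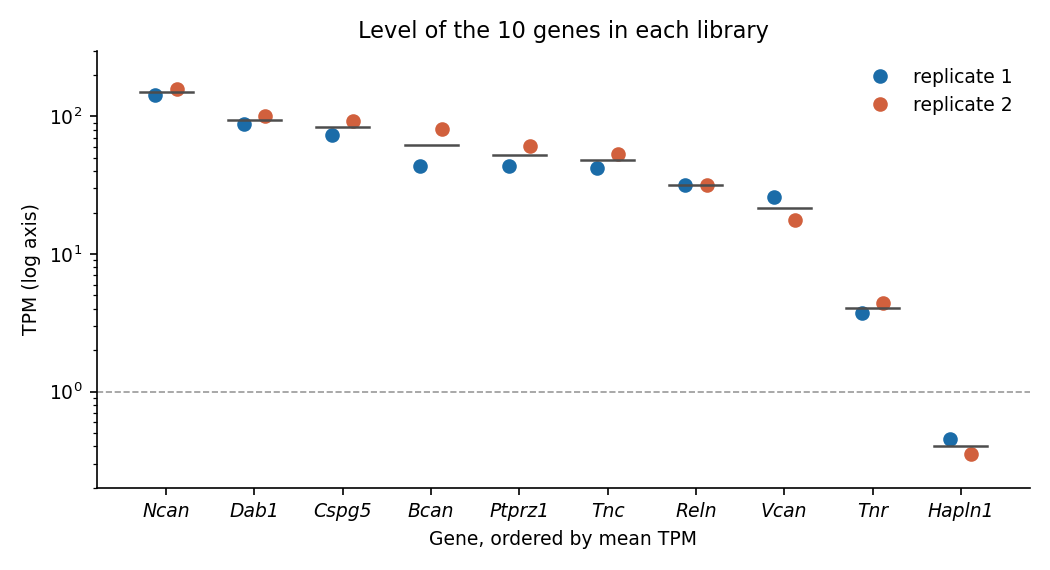
Level of each gene in TPM (log axis) in the 2 libraries, as points, with the mean as a bar and detection at 1 TPM as a dashed line. Ncan was highest at 143 and 158 TPM, Hapln1 lay under the line at 0.45 and 0.35 TPM, and Bcan had the widest gap between the pools.

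Neurocan, the product of Ncan, is the lectican made mainly by neurons of the developing brain. Ncan stood at 143 TPM in replicate 1 and 158 TPM in replicate 2, from 18795 and 24097 counts, a mean of 150 ± 10.2 TPM (SD, n = 2). This level was at the 92.0th percentile of the detected protein-coding genes, and replicate 2 lay somewhat above replicate 1. Brevican, the product of Bcan, is the lectican that dominates the adult brain and is made largely by glia. Bcan stood at 43.5 TPM in replicate 1 and at 80.8 TPM in replicate 2, from 2193 and 4615 counts, with a mean of 62.1 ± 26.4 TPM (SD, n = 2). Versican, the product of Vcan, is the lectican of many embryonic tissues, inside and outside the brain. Vcan had the opposite order, with 25.8 TPM in replicate 1 and 17.7 TPM in replicate 2, a mean of 21.8 ± 5.74 TPM (SD, n = 2). Among these 3 lecticans, replicate 2 lay far above replicate 1 for Bcan and below it for Vcan.

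The makeup of the lectican message therefore differed between the pools. Ncan took 67.4% and 61.5% of the summed TPM of Ncan, Bcan, Vcan and Acan, which came to 213 and 256 TPM. Bcan took 20.5% and 31.5%, and Vcan took 12.1% and 6.91%. The ratio of Bcan to Vcan was thus 1.68 in replicate 1 and 4.56 in replicate 2, while Ncan led both in each pool. Acan, which encodes the cartilage lectican aggrecan, stood at 0.08 and 0.17 TPM from 11 and 27 counts.

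Hapln1 encodes the link protein that joins lecticans to hyaluronan in many tissues, and it was the single member that was not detected. It stood at 0.45 TPM in replicate 1 and 0.35 TPM in replicate 2, from 41 and 37 counts. Its log2 ratio between the pools was -0.33 with a counting interval of -1.01 to 0.35, so no difference was detectable at this depth. In the mouse genome each lectican gene lies beside a link protein gene, and in the annotation used here 0 protein-coding genes lay between the members of each of the 4 pairs. Vcan and Hapln1 lie 43.7 kb apart on chromosome 13, Bcan and Hapln2 21.5 kb apart on chromosome 3, Ncan and Hapln4 2.22 kb apart on chromosome 8, and Acan and Hapln3 2 bases apart on chromosome 7. The neighbours were far apart in level: Vcan exceeded Hapln1 by 57.4-fold and 50.5-fold, in replicates 1 and 2, and Ncan exceeded Hapln4 by 177-fold in replicate 1, with Hapln4 at 0.81 and 0.76 TPM. Bcan exceeded Hapln2 by 140-fold and 135-fold, although Hapln2 rested on only 13 and 16 counts. In the fourth pair the order was turned, since Hapln3 at 1.13 and 1.70 TPM lay above Acan.

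**Figure D2:**
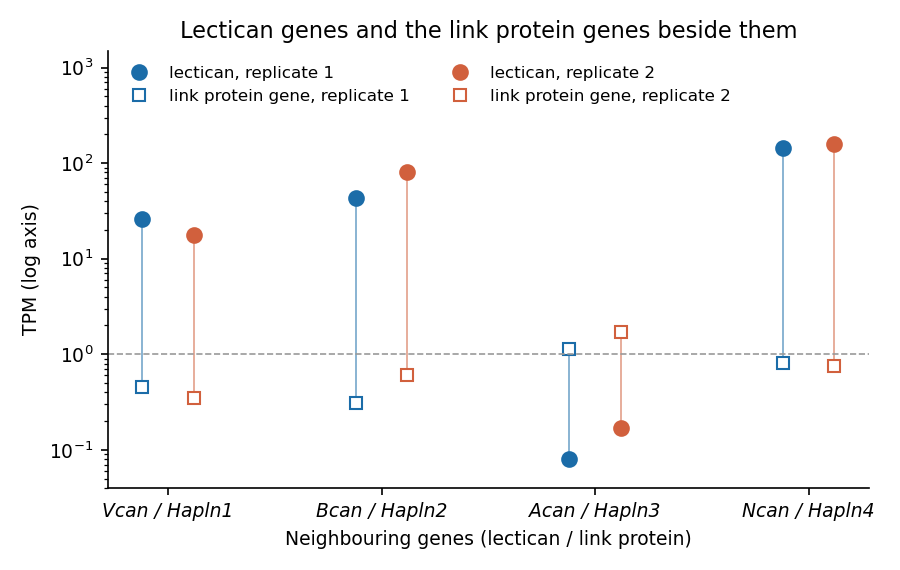
Level in TPM (log axis) of each lectican gene (filled circles) and of the link protein gene beside it in the genome (open squares), joined by a line for each library, with 1 TPM dashed. Vcan, Bcan and Ncan lie at 17.7 TPM or more while Hapln1, Hapln2 and Hapln4 lie below 1 TPM, and the pair of Acan and Hapln3 has the opposite order.

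Vcan is known for splice forms that differ in the presence of large exons carrying the sugar attachment sites. Exon 7 (the alpha domain, 2880 nucleotides, chr13:89702918-89705797 on the minus strand of mm10) and exon 8 (the beta domain, 5217 nucleotides, chr13:89688285-89693501) are both present in form V0, exon 8 alone in V1, exon 7 alone in V2 and neither in V3. Each form was taken as the transcript model with that set of exons, and the junctions of each form are shown. The exon 6 to 7 junction is shared by V0 and V2, and the exon 8 to 9 junction by V0 and V1. A read across either of these does not part the forms that share it, whereas each of the other junctions shown belongs to 1 of the 4 forms. Each line gives the end of the upstream exon in lower case and the start of the downstream exon in capitals, 5′ to 3′ on the transcript.
V0, exon 6 to 7: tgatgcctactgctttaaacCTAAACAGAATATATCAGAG
V0, exon 7 to 8: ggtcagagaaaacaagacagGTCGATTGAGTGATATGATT
V0, exon 8 to 9: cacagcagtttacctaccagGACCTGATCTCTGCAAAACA
V1, exon 6 to the beta exon: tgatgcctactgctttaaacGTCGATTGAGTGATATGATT
V2, the alpha exon to the next: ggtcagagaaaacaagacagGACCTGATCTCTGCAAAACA
V3, exon 6 to the exon after both: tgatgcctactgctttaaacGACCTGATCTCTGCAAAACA

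V0 led in both pools. It took 84.6% of the expected counts of the 4 forms in replicate 1 (95% exact binomial interval 83.4 to 85.8%) and 81.9% in replicate 2 (80.4 to 83.3%). V3, the form without attachment exons, took 10.3% (9.31 to 11.4%) and 9.63% (8.54 to 10.8%). V1 took 2.73% (2.20 to 3.33%) and 4.24% (3.50 to 5.07%), and V2, known as the form of the adult brain, took 2.30% (1.83 to 2.88%) and 4.22% (3.50 to 5.07%). The shares of V1 and V2 were higher in replicate 2 by more than counting error, and the intervals of V3 overlapped. The deposited credibility intervals, whose probability is not stated, overlapped between the pools for both V1 and V2. They ran from 0.306 to 1.05 and from 0.376 to 0.979 TPM for V1. For V2 they ran from 0.238 to 1.40 and from 0.518 to 1.61 TPM. The shifts in share were not tested against them. On the TPM scale, which weights a read on a short model more, V0 took 56.0% and 54.3% and V3 took 37.9% and 35.4%, so the order of V0 and V3 held while their distance did not. The models also differ in the length of their first and last exons, and the binomial intervals do not cover the uncertainty of assigning reads to models.

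Ptprz1 encodes a receptor tyrosine phosphatase of radial glia and oligodendrocyte precursors whose secreted form is the proteoglycan phosphacan. It stood at 43.5 TPM in replicate 1 and 61.1 TPM in replicate 2, from 6417 and 10504 counts, a mean of 52.3 ± 12.5 TPM (SD, n = 2). The table holds 1 transcript model for this gene, so receptor and secreted forms were not separated. Cspg5 encodes neuroglycan C, a membrane proteoglycan of neural cells with a growth factor-like domain. Its level was 73.5 and 93.1 TPM, a mean of 83.3 ± 13.9 TPM (SD, n = 2), at the 83.8th percentile of detected protein-coding genes. Both genes were higher in replicate 2, and both have a single transcript model, as have Ncan and Hapln1.

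Tenascin-C (Tnc) is a six-armed matrix protein of germinal zones and radial glia, and tenascin-R (Tnr) is a relative of later oligodendrocytes and neurons. Tnc stood at 42.1 TPM in replicate 1 and 53.6 TPM in replicate 2, a mean of 47.9 ± 8.15 TPM (SD, n = 2). Tnr stood at 3.73 and 4.40 TPM, a mean of 4.07 ± 0.474 TPM (SD, n = 2), at the 15.4th percentile of detected protein-coding genes. The ratio of Tnc to Tnr was 11.3 and 12.2 by the TPM of all models. A noncoding model that retains an intron held 35.0% and 45.7% of the TPM of Tnr, from 13.6 and 24.3 counts. Over coding models alone the ratios would be larger and further apart. A noncoding gene on the opposite strand, Gm38039, had 81.8 and 90.4 counts within the Tnr locus, beside 389 and 497 counts of Tnr itself. Strand use in the counting is not stated, so the reads of these overlapping genes are uncertain.

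Tnc is known for alternatively spliced fibronectin type III repeats in the middle of the protein. One of its leading transcript models holds exon 14 of 273 nucleotides (chr4:63984460-63984732, minus strand, mm10), which keeps the reading frame and is absent from the other leading model. The exon is shown in capitals between the ends of its neighbours, followed by the junction that skips it, where the capitals mark the last base of exon 13 and the first base of the next exon.
Tnc with the exon: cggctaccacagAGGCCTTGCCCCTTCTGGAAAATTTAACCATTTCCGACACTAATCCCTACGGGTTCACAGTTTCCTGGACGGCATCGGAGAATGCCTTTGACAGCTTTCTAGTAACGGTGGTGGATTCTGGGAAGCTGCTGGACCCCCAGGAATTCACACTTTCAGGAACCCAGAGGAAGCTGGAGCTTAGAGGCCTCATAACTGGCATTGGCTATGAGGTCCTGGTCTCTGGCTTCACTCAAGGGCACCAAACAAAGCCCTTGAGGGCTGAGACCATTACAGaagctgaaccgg
Tnc without the exon: cggctaccacaGAagctgaaccgg

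The form with the exon held 60.1% of the counts of the 3 long models in replicate 1 (95% exact binomial interval 58.7 to 61.4%) and 55.6% in replicate 2 (54.5 to 56.7%). The share assigned to this form was lower in replicate 2 by more than counting error. The model without exon 14 also has another first exon, of 267 nucleotides, so reads that part the models need not cover exon 14. The deposited credibility intervals of the form with the exon, whose probability is not stated, ran from 21.8 to 26.1 TPM and from 26.6 to 31.2 TPM, and the shift in share was not tested against them. On the TPM scale the shares were 60.0% and 55.6%, close to the shares of counts because the models have similar lengths. Another long model took 0.00% and 0.55% of the gene's TPM.

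Reelin is secreted by scattered neurons of the midbrain as well as by Cajal-Retzius cells of the cortex. Reln stood at 32.0 TPM in replicate 1 and 31.7 TPM in replicate 2, a mean of 31.8 ± 0.198 TPM (SD, n = 2). The pools were nearly equal, and Reln had the smallest spread of the 10 genes relative to its level. Dab1, the adaptor that reelin signalling acts on, stood at 88.6 and 101 TPM, a mean of 94.8 ± 8.85 TPM (SD, n = 2). By the TPM of all models, Dab1 exceeded Reln by 2.77-fold and 3.19-fold. Models annotated as protein-coding held 61.4% and 59.0% of the TPM of Dab1 but 38.7% and 36.7% of that of Reln. Over coding models alone the ratio would be larger in both pools. Of 7 marker genes of Cajal-Retzius and other reelin neurons, 6 were detected, with Calb2 and Lhx1 highest, while Trp73, the cortical Cajal-Retzius marker, stayed below 1 TPM in both pools.

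Reln carries a microexon of 6 nucleotides near the end of its coding sequence (chr5:21891562-21891567, minus strand, mm10), known to be included in neurons. It is shown in capitals, with the skipping junction below it, where the capitals mark the bases that meet.
Reln with the microexon: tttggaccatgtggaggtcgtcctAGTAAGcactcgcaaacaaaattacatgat
Reln without the microexon: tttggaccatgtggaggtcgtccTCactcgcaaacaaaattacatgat

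Nearly all coding Reln message was assigned to the form that includes the microexon. Of the counts of the model with it and the model without it, the former took 99.7% in replicate 1 (99.4 to 99.8%) and 99.2% in replicate 2 (98.8 to 99.5%). The skipping model rested on 8.58 and 23.2 counts. The models also differ at their ends: the first exon is 523 or 511 nucleotides and the last 1116 or 320 nucleotides, so not every read that parts them crosses the microexon. A short noncoding model took 39.6% and 44.0% of the TPM of Reln but only 5.83% and 6.81% of its counts. The TPM of Reln thus rests in part on this model, whereas 83.3% and 82.6% of its counts rest on the coding model with the microexon.

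Dab1 had 2 leading models. The first encodes the long protein and holds a 39-nucleotide exon 7 (chr4:104680070-104680108, plus strand, mm10). The second, here called the decay model, lacks that exon, carries a 270-nucleotide exon 9 (chr4:104704204-104704473) with an in-frame stop at its base 91, and is annotated as a target of nonsense-mediated decay, the pathway that removes messages with early stops. The short exon is shown in capitals between the ends of its neighbours, and the exon with the stop is shown whole with the stop codon in capitals.
Dab1 long coding model, exon 7: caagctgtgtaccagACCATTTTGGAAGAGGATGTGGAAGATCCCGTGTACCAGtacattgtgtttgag
Dab1 decay model, exon 9: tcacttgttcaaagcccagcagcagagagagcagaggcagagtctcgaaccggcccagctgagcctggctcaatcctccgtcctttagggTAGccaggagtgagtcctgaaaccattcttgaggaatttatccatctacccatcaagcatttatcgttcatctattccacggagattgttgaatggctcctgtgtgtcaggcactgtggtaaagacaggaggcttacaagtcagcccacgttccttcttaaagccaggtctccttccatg

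The long coding model took 61.1% and 56.8% of the counts of Dab1 in replicates 1 and 2, and the decay model took 27.8% and 30.9%. Of these models together, the long coding one held 68.8% of the counts in replicate 1 (95% exact binomial interval 67.3 to 70.2%) and 64.7% in replicate 2 (63.4 to 66.0%). The share was lower in replicate 2 by more than counting error. The deposited credibility intervals of the long coding model ran from 27.7 to 30.8 and from 28.8 to 31.6 TPM. Those of the decay model ran from 25.8 to 32.0 and from 33.0 to 38.7 TPM, and the shift in share was not tested against them. The last exon of these models differs too, with 3332 nucleotides in the long coding model and 285 in the decay model, so the share does not rest on the exons shown alone. On the TPM scale the models were nearly level, at 34.0% and 30.6% of the gene for the long coding model and 33.9% and 36.6% for the decay model. A protein-coding annotation covered 60.2 ± 1.70% (SD, n = 2) of the TPM of Dab1.

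**Figure D3:**
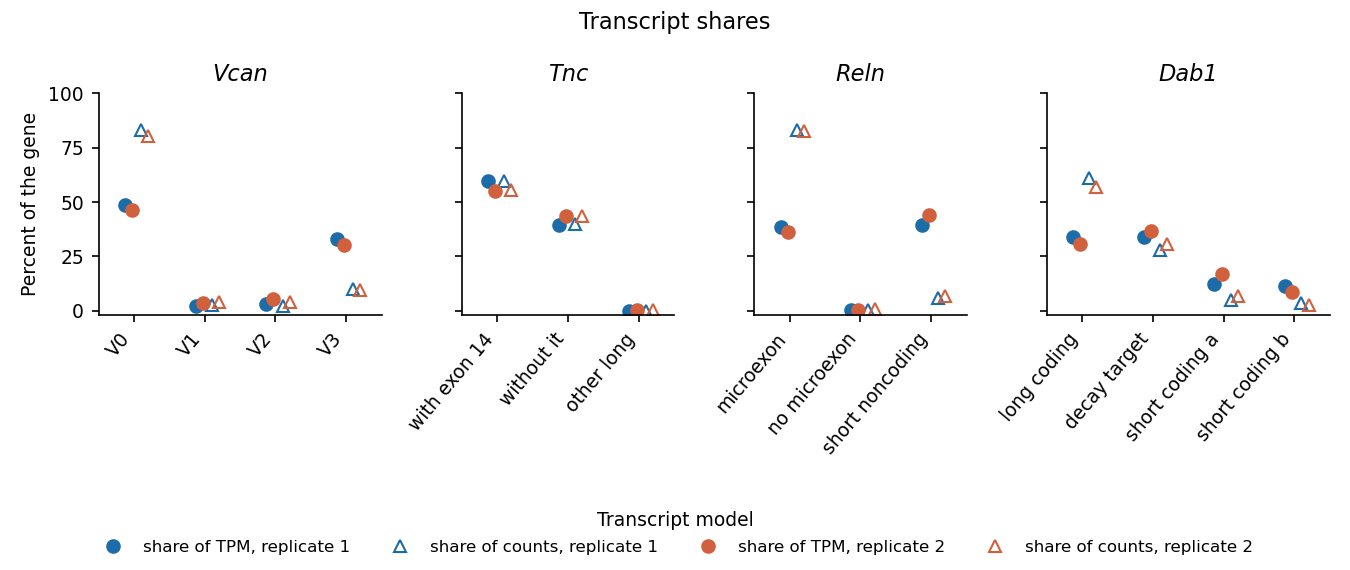
Share of the leading transcript models in Vcan, Tnc, Reln and Dab1, in percent of the gene's TPM (filled circles) and of its expected counts (open triangles), for each library. The pools lie close together for each model, while for V0 and V3 of Vcan, the microexon and short noncoding models of Reln and the long coding and decay models of Dab1 the scale moves the share more than the pool does.

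Bcan and Tnr also had noncoding models that retain introns. In Bcan they held 16.7 ± 2.21% (SD, n = 2) of the TPM and 5.35% and 6.26% of the counts, and the full-length coding model held 94.7% and 93.7% of the counts. In Tnr the retained-intron model held 35.0% and 45.7% of the TPM but rested on 13.6 and 24.3 counts. The coding models of Tnr held 96.5% and 95.1% of its counts.

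Between the pools, 9 of the 10 genes had enough reads to be compared, as had 14412 genes in all. Replicate 2 was higher in 7 and lower in 2 (Vcan and Reln) when counts were scaled by TMM. This method sets the bulk of genes equal, and 51.9% of all compared genes were higher on it. On the spike-in scale 1 member was higher and 8 were lower, beside 1.96% of all compared genes that were higher. That scale moves the median of all genes to -0.59. A scale factor moves all genes alike, so positions relative to the median of all genes do not depend on it, and there 7 of the 9 stood above and 2 below. The median log2 ratio of the 9 genes was 0.18, and that of all compared genes 0.01. Past 1.5-fold there was 1 gene higher in replicate 2, Bcan, where 2.13% of all compared genes were, and 0 lower, where 1.33% were. In either direction the share of all genes past 1.5-fold was 3.46%. At a looser threshold of 0.32 on the log2 scale, 4 were higher and 1 was lower, where 7.9% and 5.31% of all genes were, or 13.2% in either direction. Past 2-fold there were 0, beside 0.645% of all genes, or 0.354% higher and 0.291% lower.

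Bcan had a log2 ratio of 0.89 (95% counting interval 0.82 to 0.96), or 1.85-fold, which lay above 99.5% of all compared genes. Ptprz1 followed at 0.53 (0.48 to 0.57), and Tnc and Cspg5 had 0.39 and 0.38. For comparison, the central 90% of genes, between the 5th and the 95th percentile, ran from -0.33 to 0.41. Ncan at 0.18 (0.15 to 0.20) and Dab1 at 0.18 (0.13 to 0.24) lay within that range but differed beyond counting error. Vcan had -0.52 (-0.59 to -0.45), or 1.43-fold lower in replicate 2, at the 1.78th percentile of all genes. Tnr at 0.17 (-0.02 to 0.37) and Reln at -0.05 (-0.12 to 0.02) did not differ beyond counting error. On the spike-in scale Bcan had 0.29 and Vcan -1.12.

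**Figure D4:**
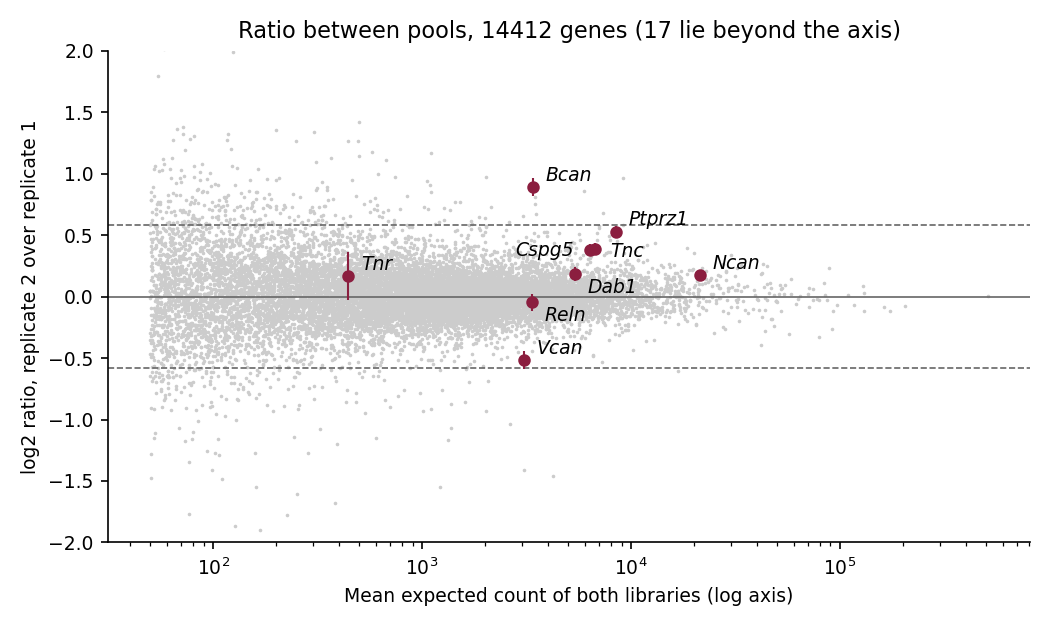
log2 ratio of replicate 2 over replicate 1 against the mean expected count (log axis) for 14412 genes in grey and the 9 compared members in red with 95% counting intervals, with 1.5-fold as dashed lines; 17 genes lie beyond the axis. Bcan lies above the upper line, while Ptprz1 and Vcan lie just inside the lines.

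Markers of cell types moved between the pools as well, with directions given on the TMM scale unless stated. On it 51.9% of all compared genes were higher in replicate 2. Past 1.5-fold, 2.13% were higher and 1.33% lower. Of 10 radial glia and astrocyte genes, all were detected, 9 were higher in replicate 2 and 4 were past 1.5-fold, with a median log2 ratio of 0.52 and a summed level of 1956 and 2702 TPM. Fabp7, a fatty acid binding protein of radial glia, stood at 1253 and 1565 TPM, and Apoe, the glial lipid carrier, at 296 and 566 TPM. Slc1a2 was the gene that was lower, at 16.4 and 12.1 TPM. Of 7 oligodendrocyte precursor genes, all were detected and 6 were higher, with a median of 0.31 and a summed level of 119 and 153 TPM. All 8 genes of dividing cells were lower in replicate 2, with a median of -0.41 and a summed level of 221 and 174 TPM. The 8 genes of young neurons split evenly, 4 higher and 4 lower, with a median of 0.04. The midbrain territory genes were higher in 8 of 8 compared, with 2 past 1.5-fold (Foxa2 at 1.59 and 3.43 TPM and Pax7 at 1.96 and 3.70 TPM), a median of 0.23 and a summed level of 243 and 272 TPM. Of 7 meningeal and fibroblast genes compared, 2 were higher and 5 lower, with a median of -0.06. Col1a1 (49.1 and 70.6 TPM) and Col1a2 were higher, at 0.58 and 0.35. Foxc1, at 1.01 and 0.55 TPM, was the 1 past 1.5-fold, at -0.82. Endothelial genes had a median of -0.08 over 6, with 2 higher and 4 lower. Of 8 cartilage genes, 5 were detected and Acan, Matn1 and Comp were below 1 TPM; of the 4 compared, Col2a1 was lower (29.5 and 18.8 TPM) and Sox9 (35.9 and 38.3 TPM), Col9a1 and Col11a1 were higher, with a median of 0.14. No marker of the glial and dividing lists was at 0, and the part of the listed cells and territory in the ratios of Bcan, Ptprz1, Tnc, Cspg5 and Vcan was not tested. On the spike-in scale, which lowers all genes, 4 of the 10 glial and 2 of the 8 midbrain genes were higher. Of the 7 precursor, 8 dividing-cell, 7 meningeal and 4 cartilage genes 0 were, and of all compared genes 1.96% were.

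The genes that make, bind or cut these matrix proteins, and those of the reelin pathway, were taken as 5 lists. The directions given are on the TMM scale, where 51.9% of all compared genes were higher and 3.46% were past 1.5-fold in either direction. On the spike-in scale 0 genes of any of the 5 lists were higher in replicate 2, beside 1.96% of all compared genes. The enzymes that build and sulphate the chondroitin sulphate chains were present almost in full. Of 22, 20 were detected, and of 21 compared 14 were higher and 7 lower in replicate 2, with 0 past 1.5-fold and a median log2 ratio of 0.09. B3gat3, which completes the linker sugar between core protein and chain, was highest at 71.9 and 77.5 TPM. B4galt7 and B3galt6, which add the galactoses of that linker, stood at 37.3 ± 2.40 and 33.1 ± 1.62 TPM (SD, n = 2), and Chpf, a chain polymerising factor, at 30.4 ± 1.34 TPM (SD, n = 2). The largest ratio was that of Chst11, a 4-O-sulphotransferase, at -0.31 (3.44 and 2.70 TPM).

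Among other components of the hyaluronan, lectican and tenascin network, 7 of 15 were detected. Of 8 compared, 4 were higher and 4 lower, 0 passed 1.5-fold, and the median log2 ratio was 0.04. The highest were Dcn, a small leucine-rich proteoglycan of fibroblasts, at 37.1 ± 4.00 TPM (SD, n = 2), Fbln1 at 33.5 ± 0.997 TPM, Bgn at 14.7 ± 1.01 TPM and Fbln2 at 10.0 ± 0.0636 TPM. Dcn also stands in the list of meningeal and fibroblast genes. The largest ratio was 0.21 (-0.12 to 0.54) for Cd44, a hyaluronan receptor, which did not differ beyond counting error. Its level was 2.08 TPM in both pools.

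Of 17 proteases and inhibitors that act on lecticans or other matrix, 15 were detected. Among 16 compared, 12 were higher and 4 lower, with a median log2 ratio of 0.05. The single gene past 1.5-fold was Adamts8, a metalloprotease, at -0.90 (-1.34 to -0.47), from 120 and 73 counts. The inhibitor Timp2 was highest at 70.6 and 82.4 TPM, followed by the membrane proteases Mmp16 at 48.0 ± 3.59 TPM and Mmp14 at 34.7 ± 0.134 TPM and by the inhibitor Timp3 at 28.7 ± 3.60 TPM (SD, n = 2).

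Ligands and receptors of phosphacan, lecticans and tenascins were abundant. Of 23, 20 were detected and 16 reached 10 TPM, and of 22 compared 11 were higher and 11 lower, with 0 past 1.5-fold and a median log2 ratio of -0.01. Ncam1, the neural cell adhesion molecule, stood at 479 ± 24.8 TPM, and Ptn, the heparin-binding ligand of Ptprz1, at 332 ± 2.96 TPM (SD, n = 2). Ptprs, a phosphatase that binds chondroitin sulphate, stood at 187 ± 2.63 TPM and the syndecan Sdc3 at 165 ± 8.37 TPM (SD, n = 2). Cntn1, the neuronal contactin that binds phosphacan and tenascin-R, had the largest ratio at 0.46, with 55.3 TPM in replicate 1 and 73.6 TPM in replicate 2.

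All 26 genes of the reelin pathway were detected, of which 8 were higher and 18 lower in replicate 2, with 0 past 1.5-fold and a median log2 ratio of -0.06. The receptor gene Lrp8 (also called Apoer2) stood at 47.0 TPM in replicate 1 and 36.8 TPM in replicate 2, a log2 ratio of -0.27 (-0.33 to -0.20). The second receptor gene, Vldlr, stood at 28.9 and 32.2 TPM, a log2 ratio of 0.19 (0.11 to 0.27). Lrp8 exceeded Vldlr by 1.63-fold in replicate 1 and 1.14-fold in replicate 2, so the receptors were closer in level in replicate 2. Fyn, the kinase that phosphorylates the Dab1 protein, had nearly the same level in the pools, at 60.4 and 59.5 TPM. The highest genes of the list have wide roles in all cells: Cfl1 (the actin-severing protein cofilin) at 2431 ± 19.3 TPM, Rbx1 and Rnf7 (subunits of ubiquitin ligases) at 267 ± 6.15 and 167 ± 8.46 TPM, and the small GTPase Rap1b at 185 ± 6.63 TPM (SD, n = 2). Adamts3, a protease that cuts reelin, had the largest ratio at 0.30, with 2.75 and 3.30 TPM.

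**Figure D5:**
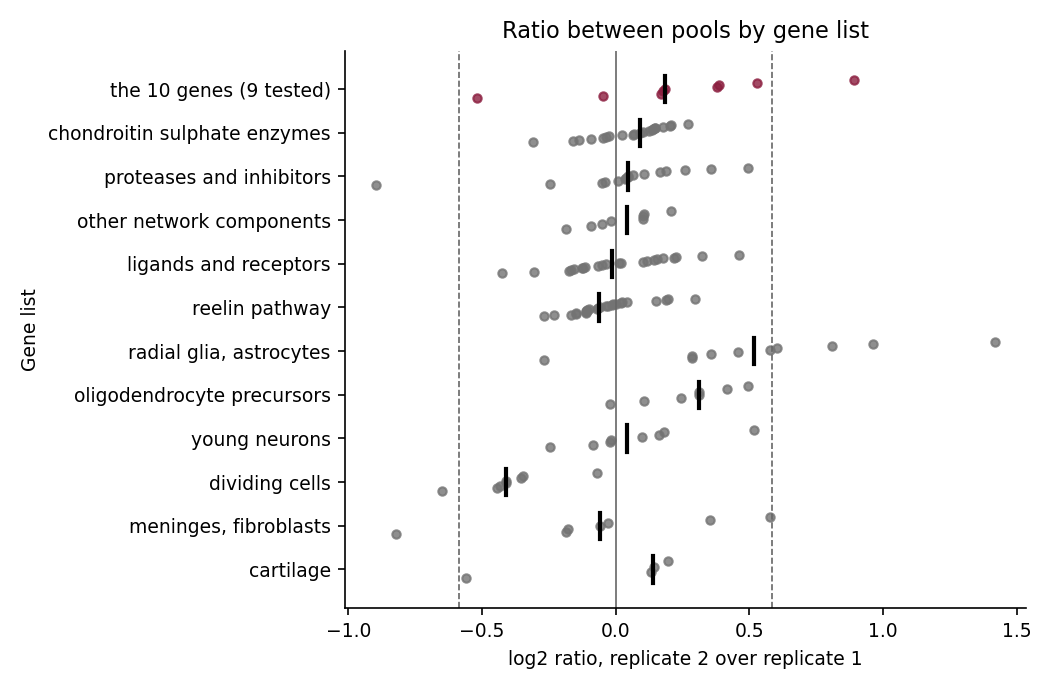
log2 ratio of replicate 2 over replicate 1, on the TMM scale, for the genes of each list with enough reads, with the median as a black bar and 1.5-fold as dashed lines. The median of the members is 0.18, that of radial glia and astrocyte markers 0.52 and that of dividing cells -0.41, while the 5 pathway lists have medians between -0.06 and 0.09.

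Promoter sequences were available for 9 of the 10 genes from RefSeq (GRCm38.p6). Several short motifs were searched on both strands in the 250 bases before each start. A gene was counted when any of its windows matched, whereas the share over all promoters is per window. The motif GGGCGG, a GC box, was found in 7 of the 9 genes, and in 32.7% of 32851 promoter windows of that length. TTGGC was found in 3 genes and 41.5% of windows, and ATTGTT in 0 genes and 9.42%. CANNTG, where N is any base, was found in 5 genes and 66.2%, and TATAAA in 2 genes and 12.4%. Tnr and Hapln1 lacked the GC box, and each had 2 CpG dinucleotides, whereas the median of all windows was 6. The Hapln1 window (chr13:89540386-89540635) lies inside the gene as annotated here, which starts at 89539796. Reln had 6 GC boxes and 37 CpG, a number of CpG that 98.1% of windows did not exceed. Dab1 had 40 CpG in the window of 1 of its starts and 10 in that of the other, which also lacked the GC box. The windows of Reln (chr5:22344706-22344955, minus strand) and Tnr (chr1:159523519-159523768, plus strand) are shown because Reln had the most GC boxes of the 9 genes and Tnr none, with the GC boxes in capitals.
Reln: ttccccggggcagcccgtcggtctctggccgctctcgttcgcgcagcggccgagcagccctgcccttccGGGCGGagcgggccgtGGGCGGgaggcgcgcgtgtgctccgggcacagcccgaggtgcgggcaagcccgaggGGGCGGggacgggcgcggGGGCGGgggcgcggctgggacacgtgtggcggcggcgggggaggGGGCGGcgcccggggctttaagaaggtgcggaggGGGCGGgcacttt
Tnr: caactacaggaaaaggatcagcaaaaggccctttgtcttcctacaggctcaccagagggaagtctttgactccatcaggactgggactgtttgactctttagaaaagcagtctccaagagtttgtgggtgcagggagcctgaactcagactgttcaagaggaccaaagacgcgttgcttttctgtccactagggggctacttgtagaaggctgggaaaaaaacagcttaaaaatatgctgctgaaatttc
A match describes the letters of the window, and its absence says only that these letters are not there.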

How the data were processed

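Total RNA of 2 midbrain pools was analysed from 1 gene and 1 transcript table per library. Per the deposited readme, reads were aligned to mm10 and quantified on GENCODE M4; the aligner and quantifier are not named in the sources used here, though RSEM uses these column names. The deposited expected counts are, per the file headers, estimated reads; a read that fits more than 1 feature is divided among them. The deposited TPM, per the file headers, are levels per length, scaled to a common total that includes spike-ins. The deposited isoform share is, per the file headers, a percent of the gene's TPM. Other deposited columns served as alternatives.

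Symbols, models and coordinates came from GENCODE M21 (GRCm38), and 884 identifiers without a match held 0.197% and 0.183% of counts. Depth was 31830355 and 36576263 expected counts. Ratios between pools used expected counts plus 0.5, scaled by TMM factors of edgeR 4.0.16 on rounded counts, for genes with a mean of at least 50. Alternatives were DESeq2 1.42.0 size factors, total counts, spike-ins, TPM, another pseudocount and filter, other folds, posterior means and leaving out a library. Intervals are at 95% and exact binomial; they cover counting error only, as no molecular identifiers are stated. Scripts in Python 3.11.15 and R 4.3.3 were tested on simulated data.

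The members and lists were chosen with earlier results of these data known. The rule for named genes took all members, the 4 highest genes and the largest ratio of each of 5 pathway lists, any at 0, and the 2 highest of each marker list, of which some are not described. The link protein genes, Acan, Lrp8, Vldlr, Fyn, Trp73, Barhl1, Foxa2 and Pax7 were named after their values were seen. So were Slc1a2, Col9a1, Col11a1, Matn1, Comp, Col1a2, Foxc1 and overlapping genes. The same holds for the midbrain and heparan sulphate lists, the shares of counts and the transcripts and sequences shown. Hapln1 was too low to be compared between pools beyond its interval.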

Additional observations from a re-analysis of the deposited data

How the results depend on the processing

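No paired analysis was possible because there is a single group. With 2 pools an SD rests on 1 difference, and ratios between them have no replicate. Settings were tried one at a time. On the spike-in scale the median log2 ratio of the members went from 0.18 to -0.41, those of Ncan, Ptprz1, Tnc, Cspg5 and Dab1 turned to -0.42, -0.071, -0.21, -0.22 and -0.41, and 2 members rather than 1 passed 1.5-fold, both lower. That scale moves all genes: on it 51.3% of all compared genes were past 1.5-fold lower and 0.201% past 1.5-fold higher. With a mean count of at least 500, which leaves out Tnr, the median was 0.28. At the lower threshold of 0.32 (log2) 5 members passed and at 2-fold 0. Without replicate 1 or 2, 9 members were detected either way and their median level ranged from 42.8 to 57.4 TPM. Under DESeq2 size factors, total counts, a pseudocount of 1 and posterior mean counts, each of the 9 ratios stayed within its counting interval, and under deposited TPM that of Ncan left it at 0.14. Of 20 levels with posterior mean TPM or over Ensembl genes only, 19 stayed within the spread of the pools, the exception being Reln at 33.4 TPM with the latter. Shares of the leading transcript depend on the quantity: 6 of 12 with both pools kept stayed within the spread, and counts in place of TPM gave 81.6% for V0 of Vcan and 6.32% for the short noncoding model of Reln. Depth limits what rests on few counts, such as Hapln1, Hapln2, Acan, the retained-intron model of Tnr and the Reln model without the microexon.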

Other observations

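Heparan sulphate proteoglycans, the other large class of proteoglycans of the brain, were listed after the results above were seen. All 12 were detected, 8 of them at 10 TPM or more. The highest were Gpc2, a glypican of growing axons, at 186 TPM in replicate 1 and 149 TPM in replicate 2, Sdc3, a neural syndecan, at 159 and 171 TPM, and Agrn, the basement membrane protein agrin, at 109 and 105 TPM. Gpc1 stood at 43.5 ± 2.75 TPM (SD, n = 2). Of the 12, 7 were higher and 5 lower in replicate 2 on the TMM scale, and 0 passed 1.5-fold. Of all compared genes 51.9% were higher on it, and 3.46% were past 1.5-fold in either direction. On the spike-in scale, which lowers all genes, 12 were lower, 5 of them past 1.5-fold. Of all compared genes, 51.3% were past 1.5-fold lower on that scale. On the TMM scale the median log2 ratio was 0.05, beside 0.01 for all genes. Gpc5 had the largest ratio at 0.53, with 6.23 and 8.71 TPM, and Gpc2 had -0.30. Gpc2 and Sdc3 thus lay close to Ncan in level, which stood at 143 and 158 TPM.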
